A study of Homo sapiens with 6 samples.

Results

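The histone variant genes described here are 9 genes listed in the expression matrix under the symbols H2AFZ, H2AFX, H2AFY, H2AFY2, H2AFV, H2AFJ, H3F3A, H3F3B and H1FX, chosen by name out of 58174 genes. Current symbols are H2AZ1 for H2AFZ, H2AX for H2AFX, MACROH2A1 for H2AFY, MACROH2A2 for H2AFY2, H2AZ2 for H2AFV, H2AJ for H2AFJ, H3-3A for H3F3A, H3-3B for H3F3B and H1-10 for H1FX. They were measured by RNA sequencing in 6 samples of cells that carry the label Huh-7, the name of an established human liver cancer line. In 3 samples the cells had been transfected with miR-27a-3p mimics, synthetic RNAs that imitate the mature microRNA, and in 3 with a negative control, abbreviated NC in the labels; RNA was taken 48 h after transfection in both groups. Per the study's title the experiment concerned the cisplatin sensitivity of hepatocellular carcinoma, but no cisplatin treatment is named for any sample. Whether the 3 samples of each group were separate cultures is not stated, and p-values then cover only the spread among these samples, which may be technical.

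Most histone mRNA comes from the clustered, replication-dependent genes, whose transcripts are made in S phase and end in a stem-loop in place of a poly(A) tail. Replacement variants come from genes outside those clusters, their transcripts are polyadenylated, and their proteins are placed into chromatin outside replication as well. H2A.Z marks promoters and enhancers, H2A.X is phosphorylated around DNA breaks, macroH2A carries a large extra domain and is found in repressed chromatin, H3.3 is exchanged into active genes and heterochromatin, and linker H1 variants bind the DNA that enters and leaves the nucleosome.

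Because the treatment was a microRNA, its sequence and the places where its seed pairs with the variants' 3' UTRs are shown first. The mature strand lies at chr19:13836447-13836467 on the minus strand of GRCh38.p14 (RefSeq), and capitals mark the seed, bases 2 to 8. The longest annotated 3' UTR of each of the 9 genes (GENCODE 29) was searched on the transcript strand for ACTGTGAA (8mer), ACTGTGA (7mer-m8) and CTGTGAA (7mer-A1). The search found 2 matches, 1 at chr4:99948361-99948389 in H2AFZ and 1 at chr17:75778188-75778216 in H3F3B, both on the minus strand of hg38, and capitals mark the matching bases.
hsa-miR-27a-3p: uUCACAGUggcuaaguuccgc
H2AFZ 7mer-A1 match: ggactgtatctCTGTGAAaaacacaattt
H3F3B 7mer-m8 match: gaccatacatcACTGTGAtagaatgtggg
The H2AFZ match starts at position 84 of a 3' UTR of 374 bases and the H3F3B match at position 390 of 2161 bases. None of the 9 genes held an 8mer. A match of any class was thus present in 2 of 9 variant genes, beside 3310 of 11465 tested genes with an annotated 3' UTR (28.87%). A match is a run of letters and not a measured binding site. The 2 genes with a match did not go the same way, with H3F3B lower and H2AFZ not passing the test on the deposited scale, as given below.

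Values are FPKM as the authors deposited them, fragments divided by transcript length and by the library's total, so levels may be compared between genes of different length. Fold changes are mimics against negative control on the log2(FPKM + 0.5) scale, which understates the change of low genes, with their standard error (SE). The test was limma, run on the 14439 genes whose mean across samples reached 1 FPKM, and a gene is called at a Benjamini-Hochberg adjusted p of at most 0.05 over all of them. Depth is not given, but the smallest values implied 17100000 to 21300000 fragments per control library and 25400000 to 31300000 per mimic library. Mitochondrial transcripts held 16.89% to 32.83% of FPKM in controls and 14.57% to 38.93% in mimic samples, highest in sample 3 of each group. The labelled cell type was checked on 12 liver genes, whose summed level was 1.15 to 2.17 FPKM in controls and 0.912 to 1.27 in mimic samples. The apolipoprotein genes APOA2 and APOB and the transthyretin gene TTR were listed at 0 in all 6 samples, ALB (albumin) was listed at 0 in all but negative control sample 2, where it was at 0.011, and AFP (alpha-fetoprotein) did not pass 0.0237 FPKM. At 1 FPKM or more stood only SERPINA1 in negative control sample 1, so the data go against the hepatocellular label. Among 12 markers of blood, endothelium, fibroblasts and muscle, 3 or 4 were at 1 FPKM or more in each sample, with summed levels of 41.9 to 49.7 FPKM in controls and 31.7 to 40.4 in mimic samples. These markers did not go 1 way: COL1A1, ACTA2 and CDH5 were lower in every mimic sample, while CD68, a macrophage and lysosome gene, was at 7.65 to 9.04 FPKM in controls and 10.8 to 19.0 in mimic samples. Their part in the results below was not tested, and in bulk RNA fewer cells of a type and less RNA per cell cannot be told apart.

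More genes were called lower than higher across the transcriptome, and the variants were read against that. On the deposited scale 12% of tested genes were called higher and 39.6% lower, and the median log2 fold change over these 14439 genes was -0.29. When samples were rescaled so that the median gene had an even ratio between them (median-of-ratios scaling), the median was 0.0097, with 26.9% of genes called higher and 27.4% lower. Of the 9 variant genes 8 passed the expression minimum, all but H2AFY2. Of those 8, H2AFX was called higher, H3F3A and H3F3B were called lower, and 5 were not called. With so few genes these counts, 12.5% higher and 25% lower, are no result beside the shares for all genes. Median-of-ratios scaling called 3 higher (H2AFX, H2AFZ and H2AFY) and 1 lower (H3F3B). Groups did not overlap for 4 of the 8 tested genes, beside 60.5% of all tested genes.

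**Figure D1:**
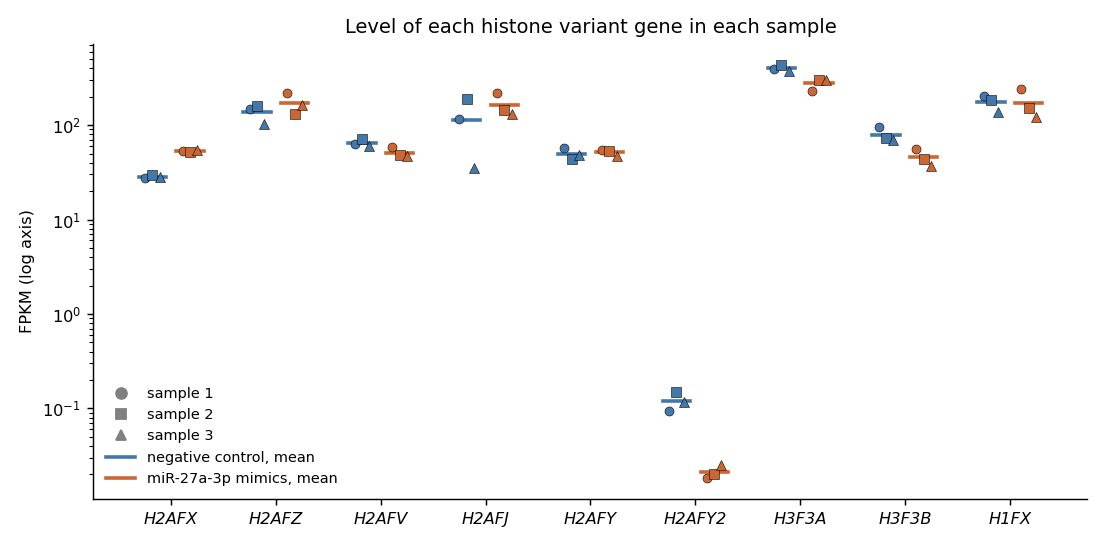
Level of each of the 9 variant genes in each sample, in FPKM on a log axis; points are samples, with shape for sample number, and lines are group means. H2AFX lay at 27.4 to 29.7 in the controls and 52.3 to 54.1 in the mimic samples, and H2AFY2 stayed under 0.15 in all samples.

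H2AFX encodes H2A.X, whose C-terminal serine is phosphorylated by ATM, ATR and DNA-PK around DNA double-strand breaks. It is a single-exon gene at chr11:119093854-119095467 on the minus strand (hg38). In sample order 1 to 3, its level was 27.4, 29.7 and 27.9 FPKM with the negative control and 53.0, 52.3 and 54.1 with the mimics, and values below keep that order. Every mimic sample lay above every control, and samples within a group were close together. H2AFX rose from 28.3 ± 1.23 to 53.1 ± 0.904 FPKM (SD, n = 3 each), with a log2 fold change of 0.90 (SE 0.12, limma adjusted p = 0.000464). The call held in all 18 alternative settings, with fold changes of 0.87 to 1.22. Of the 1735 genes called higher, 511 rose more than H2AFX.

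H2AFX is unlike the other variants in its mRNA, which is known to end either at a stem-loop or at a poly(A) site further on. The transcript was searched for the consensus of the histone stem-loop, and the match is shown beside that of HIST2H2BE, a clustered H2B gene that also has a long polyadenylated form. Capitals mark the stem and loop. The H2AFX match lies at chr11:119094893-119094918 and that of HIST2H2BE at chr1:149886183-149886208, both on the minus strand of hg38.
H2AFX stem-loop: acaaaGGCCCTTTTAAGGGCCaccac
HIST2H2BE stem-loop: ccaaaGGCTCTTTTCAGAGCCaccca
The H2AFX match starts 50 bases after the stop codon and ends 1044 bases before the annotated transcript end. That of HIST2H2BE starts 57 bases after its stop codon. None of the other 8 variant genes held a match, beside 33 of 72 protein-coding genes of the HIST clusters (45.83%) and 6 of 19690 other protein-coding genes (0.03047%), H2AFX among them. FPKM per gene does not separate the stem-loop form of H2AFX from the polyadenylated form. HIST2H2BE, named after its values were seen, fell from 59.8 ± 3.87 to 11.7 ± 1.28 FPKM (log2 fold change -2.30, SE 0.13, limma adjusted p = 1.97e-05), opposite to H2AFX.

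H2A.Z is encoded by H2AFZ (chr4:99948086-99950388, minus strand) and H2AFV (chr7:44826791-44848083, minus strand), which make H2A.Z.1 and H2A.Z.2; their coding sequences matched at 311 of 383 aligned bases (81.2%). H2AFZ stood at 147.5, 159.9 and 102.2 FPKM in the controls and at 220.5, 131.5 and 163.1 in the mimic samples. The groups overlapped, with mimic sample 2 below 2 of the 3 controls. The means were 136.5 ± 30.3 and 171.7 ± 45.1 FPKM, and the log2 fold change of 0.32 (SE 0.24, 95% interval -0.22 to 0.87, limma adjusted p = 0.285) did not pass the test. It did with median-of-ratios scaling (0.65, adjusted p = 0.0400) and after a correction for GC content and length (0.84, adjusted p = 0.0131). It was 0.13 without negative control sample 3 (adjusted p = 0.682) and 0.13 without mimic sample 1 (adjusted p = 0.643).

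H2AFV stood at 63.3, 71.5 and 59.7 FPKM in the controls and at 58.4, 47.9 and 46.9 in the mimic samples. Every mimic sample lay below every control, mimic sample 1 only just. From 64.8 ± 6.04 to 51.1 ± 6.36 FPKM, the log2 fold change was -0.34 (SE 0.14, 95% interval -0.67 to -0.012, limma adjusted p = 0.0777) and did not pass the test. Without mimic sample 1 it was -0.44 (adjusted p = 0.0266), whereas median-of-ratios scaling gave -0.021 (adjusted p = 0.896).

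Within the H2A.Z pair the balance lay further toward H2AFZ in the mimic samples, a ratio that no scaling between samples by 1 factor can alter. H2AFZ made up 70.0%, 69.1% and 63.1% of the summed FPKM of the pair in the controls and 79.1%, 73.3% and 77.7% in the mimic samples. All 3 mimic samples lay above all 3 controls. The difference of 9.26 percentage points (67.4% ± 3.71 against 76.7% ± 3.01, SD, n = 3 each) had an exact two-sided permutation p of 0.1, the smallest that 3 against 3 samples allow, and 0.175 after Benjamini-Hochberg adjustment over 7 shares and sums tested in this way.

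H2AFJ encodes H2A.J, an H2A form known to accumulate in senescent cells, and lies at chr12:14774383-14778002 on the plus strand. Its level was 115.05, 188.8 and 35.4 FPKM in the controls and 219.3, 144.4 and 131.1 in the mimic samples. Negative control sample 3 was far below the other controls, and the groups overlapped. The means were 113.1 ± 76.7 and 164.9 ± 47.6 FPKM, with a coefficient of variation of 67.9% in the controls, the widest of the 9 genes there. The log2 fold change of 0.81 (SE 0.58, 95% interval -0.58 to 2.19, limma adjusted p = 0.285) was not called in any of the 18 alternatives, and it was 0.12 (adjusted p = 0.759) without negative control sample 3.

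The macroH2A genes were very unequal in level. H2AFY (chr5:135333900-135399914, minus strand) encodes macroH2A1, whose splice forms the gene-level FPKM does not separate. It stood at 57.9, 44.2 and 47.9 FPKM in the controls and at 54.2, 53.0 and 46.8 in the mimic samples, with overlapping groups. Its means of 50.004 ± 7.11 and 51.4 ± 3.98 FPKM gave a log2 fold change of 0.044 (SE 0.15, limma adjusted p = 0.820). Median-of-ratios scaling gave 0.37 (adjusted p = 0.0338). H2AFY2 (chr10:70052796-70112280, plus strand), the gene of macroH2A2, stood at 0.0927, 0.149 and 0.118 FPKM in the controls and at 0.0182, 0.0201 and 0.0251 in the mimic samples. All of its mimic samples lay below its controls. It was below the expression minimum and was not tested on the main scale; without that minimum it was called lower (log2 fold change -0.25 with the pseudocount, limma adjusted p = 0.0375). H2AFY2 made up 0.160% to 0.335% of the summed FPKM of the pair in the controls and 0.0335% to 0.0536% in the mimic samples (exact two-sided permutation p = 0.1, adjusted 0.175). Values this low may rest on very few fragments per library, so both the call of H2AFY2 and its share are uncertain.

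H3.3 is encoded by H3F3A (chr1:226061851-226072001, plus strand) and H3F3B (chr17:75776434-75785893, minus strand). Both genes are known to make the same protein, while their coding sequences matched at 323 of 411 bases (78.59%). H3F3A stood at 391.2, 436.9 and 377.4 FPKM in the controls and at 228.5, 303.4 and 299.6 in the mimic samples. All mimic samples lay below all controls. H3F3A fell from 401.8 ± 31.2 to 277.2 ± 42.2 FPKM, a log2 fold change of -0.54 (SE 0.17, limma adjusted p = 0.0252). The call was lost with median-of-ratios scaling (-0.22, adjusted p = 0.293), after GC and length correction (-0.048, adjusted p = 0.814), and without negative control sample 1 (adjusted p = 0.0680) or 2 (adjusted p = 0.0958).

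H3F3B stood at 94.8, 72.9 and 69.6 FPKM in the controls and at 55.6, 43.9 and 37.3 in the mimic samples. Sample 1 was highest in each group, and the groups did not overlap. H3F3B fell from 79.1 ± 13.7 to 45.6 ± 9.25 FPKM, with a log2 fold change of -0.79 (SE 0.19, limma adjusted p = 0.00836). The fall was -0.47 with median-of-ratios scaling (adjusted p = 0.0326). After GC and length correction it was -0.43 (adjusted p = 0.0679) and was not called. The same correction with a replicate block called it (adjusted p = 0.0130), but that block pairs samples by number only, and no pairing is stated. H3F3B is the variant gene with the 7mer-m8 match printed above.

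The share of H3F3B in the summed FPKM of the H3.3 pair was 19.5%, 14.3% and 15.6% in the controls and 19.6%, 12.6% and 11.1% in the mimic samples. These overlapped, with means of 16.5% ± 2.72 and 14.4% ± 4.52 (exact two-sided permutation p = 0.6, adjusted 0.7). Summed over both genes, H3.3 transcripts stood at 486.0, 509.8 and 447.0 FPKM in the controls and at 284.1, 347.2 and 336.9 in the mimic samples, all below the controls (exact two-sided permutation p = 0.1, the smallest possible, adjusted 0.175). This sum, like those of the H2A variants and of the clustered genes below, was chosen after the values were seen.

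Copies of the H3.3 genes carry reads that may belong to their parents. Files listed 12 pseudogenes of H2AFZ, H3F3A and H3F3B by name, of which 3 had a mean of at least 1 FPKM. H3F3AP4 (chr2:174719908-174720318, plus strand) is identical to H3F3A over its 411 bases and fell from 63.6 ± 3.01 to 38.2 ± 4.74 FPKM (log2 fold change -0.73, SE 0.14, limma adjusted p = 0.00275). H3F3AP6 (chr4:139698144-139698554, minus strand), 99.27% identical to H3F3A, fell from 14.8 ± 1.72 to 9.16 ± 1.008 (-0.66, SE 0.14, adjusted p = 0.00552). H3F3BP1 (chr13:71675067-71675469, plus strand) is named for H3F3B, but it matched H3F3A at 98.51% and H3F3B at 77.64% of aligned bases, and fell from 4.15 ± 0.269 to 2.17 ± 0.626 (-0.83, SE 0.19, adjusted p = 0.00642). The sources used here do not say how reads that match several copies were assigned, so the levels of H3F3A and its copies are uncertain. All 3 copies were lower in the mimic samples, as H3F3A was.

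H1FX encodes the linker variant H1.X, from a single exon at chr3:129314771-129316277 on the minus strand. It stood at 205.3, 185.2 and 137.2 FPKM in the controls and at 242.8, 150.2 and 123.2 in the mimic samples. Mimic samples lay on either side of the controls. Its means of 175.9 ± 34.98 and 172.1 ± 62.7 FPKM gave a log2 fold change of -0.072 (SE 0.27, limma adjusted p = 0.840), which turned to 0.25 with median-of-ratios scaling (adjusted p = 0.379).

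For the 6 H2A variants the sums overlapped, with 411.2, 494.3 and 273.2 FPKM in the controls and 605.5, 429.1 and 442.0 in the mimic samples (exact two-sided permutation p = 0.4, adjusted 0.56). Their mean was higher in the mimic samples, where that of the H3.3 genes was lower. All 9 genes summed to 1050 ± 172 FPKM in the controls and 987.0 ± 126 in the mimic samples, and the groups overlapped (exact two-sided permutation p = 0.8, adjusted 0.8). The difference of -62.7 FPKM turned to 168.4 with median-of-ratios scaling and to 6.997 without negative control sample 2.

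**Figure D2:**
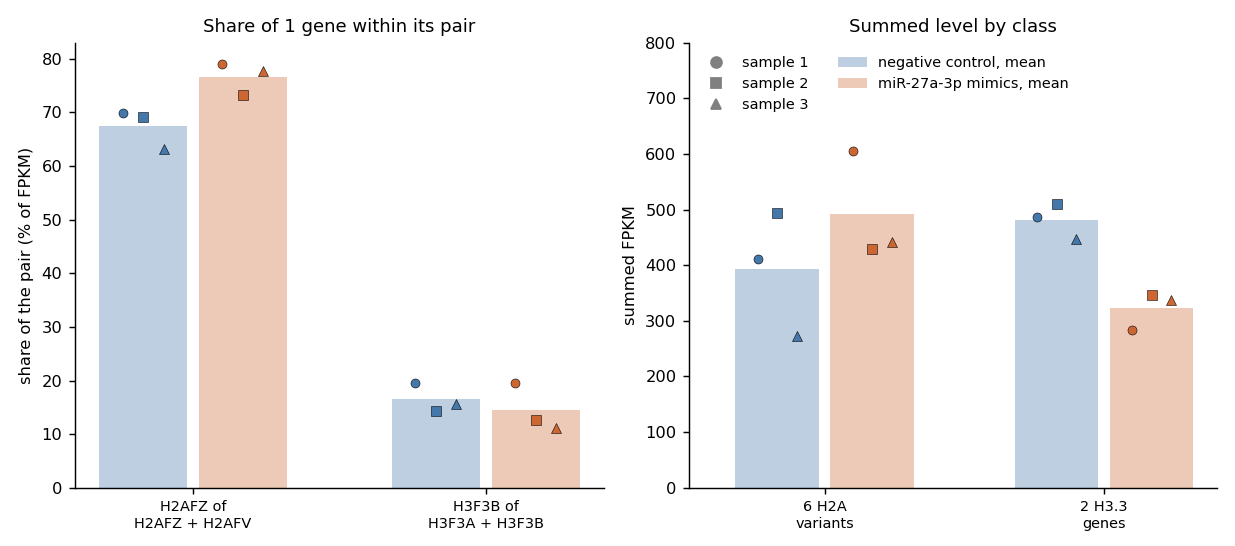
Left, share of 1 gene in the summed FPKM of its pair (percent); right, summed FPKM of the H2A variants and of the H3.3 genes; bars are means of 3 samples from 0 and points are samples. The share of H2AFZ was 63.1% to 70.0% in the controls and 73.3% to 79.1% in the mimic samples, while the share of H3F3B overlapped between groups.

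The order of the variants by FPKM also differed between the groups, as a description. In the controls it ran H3F3A, H1FX, H2AFZ, H2AFJ, H3F3B, H2AFV, H2AFY, H2AFX and H2AFY2. Neighbours overlapped in range except at H3F3A above H1FX, H2AFV above H2AFY, H2AFY above H2AFX, and H2AFX above H2AFY2. In the mimic samples it ran H3F3A, H1FX, H2AFZ, H2AFJ, H2AFX, H2AFY, H2AFV, H3F3B and H2AFY2. There the neighbours without overlap were H2AFJ above H2AFX and H3F3B above H2AFY2. By their mean over the 6 samples the H3.3 gene H3F3A and the linker gene H1FX were among the most abundant transcripts, with 0.977% and 1.92% of tested genes at a higher level, against 11.8% for H2AFX.

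**Figure D3:**
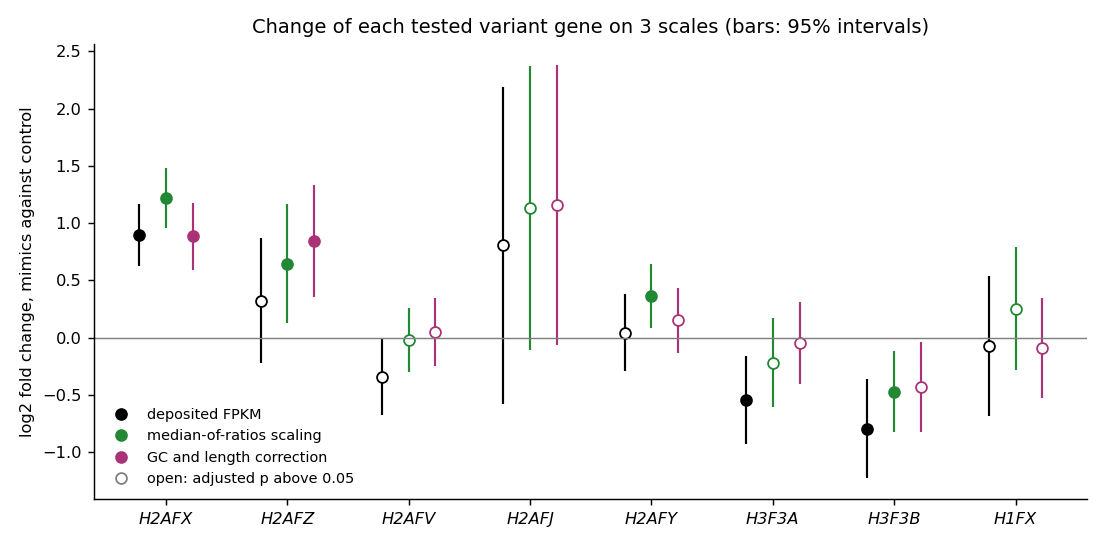
Log2 fold change of the 8 tested variant genes, mimics against control, on deposited FPKM, after median-of-ratios scaling and after GC and length correction; bars are 95% intervals and open symbols have an adjusted p above 0.05. H2AFX (0.90 on deposited FPKM) is called on all 3 scales, and H3F3A (-0.54) only on the deposited one.

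Change went with base composition over all tested genes. In the quintile of genes with the lowest GC content (up to 41.26%) the median log2 fold change was -0.57, and in the quintile with the highest (from 58.35%) it was 0.024. GC content of the longest protein-coding transcript was 40.5% for H3F3A, 43.1% for H3F3B and H2AFV, 46.6% for H2AFZ, 54.9% for H2AFY, 62.9% for H2AFJ, 66.4% for H2AFX and 68.6% for H1FX. The fall of H3F3A (-0.54) was close to the median of its quintile (-0.57), and that of H3F3B (-0.79) lay below the median of its own (-0.40). H2AFX (0.90) lay above the median of its quintile (0.024), and H1FX (-0.072), in the same quintile, slightly below it. After correction of each sample for GC content and length, H2AFX (0.89, adjusted p = 0.00140) and H2AFZ (0.84) were called higher by limma and none lower, H3F3B being the 1 gene lower at an unadjusted p under 0.05.

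**Figure D4:**
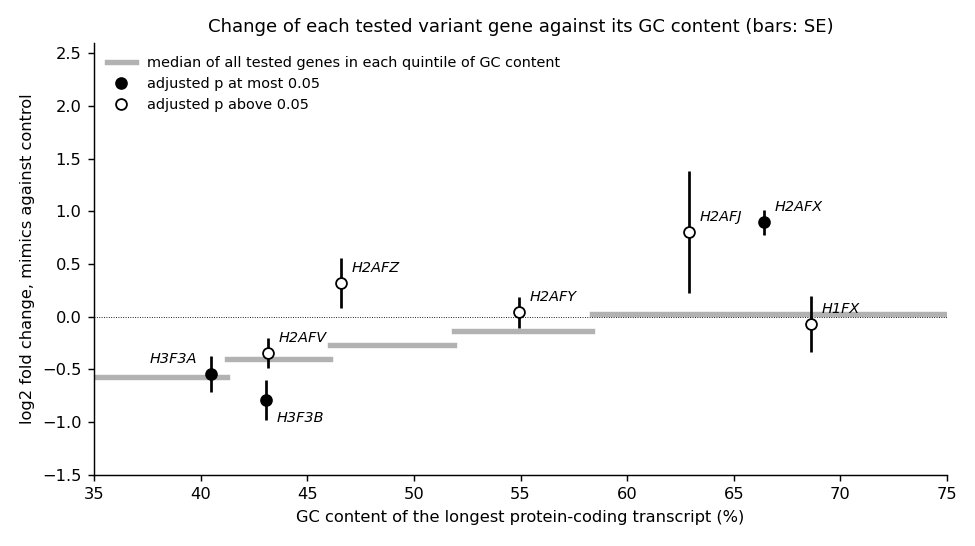
Log2 fold change of each tested variant gene (points, bars SE) against the GC content of its longest protein-coding transcript in percent; grey lines are the median of all tested genes in each quintile of GC content. The medians run from -0.57 to 0.024, and H2AFX (0.90) stands above that of its quintile.

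Genes on the opposite strand overlap several variants, and the sources used here give no strand setting for the authors' counting. Reads from exon bases shared by both genes can therefore not be told apart. The overlaps given are between whole gene intervals, introns included, and the overlap of exons was not measured. H1FX-AS1 overlaps H1FX by 886 bases and fell from 3.63 ± 0.0731 to 1.502 ± 0.724 FPKM (log2 fold change -1.11, SE 0.26, limma adjusted p = 0.00714), where H1FX was not called. C5orf66 overlaps H2AFY by 24320 bases and fell from 3.45 ± 0.248 to 1.80 ± 0.281 FPKM (-0.79, SE 0.16, adjusted p = 0.00346). UNK, a gene overlapping H3F3B by 1123 bases, stood at 12.5 ± 0.235 and 11.4 ± 0.0328 FPKM (-0.13, adjusted p = 0.386). AIFM2 overlaps H2AFY2 by 14058 bases and stood at 11.6 ± 1.72 and 14.5 ± 3.57 FPKM (0.30, adjusted p = 0.241), far above the level of H2AFY2 itself.

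Promoters were compared because several replacement variants share a short promoter motif with the clustered genes. RefSeq promoters of 300 bases (GRCh38.p14, 250 before to 50 after the start) were found for all 9 genes and were searched for CCAAT on both strands. H2AFX, H2AFV and H3F3B held 4 each, H2AFZ and H2AFJ 3 each, H3F3A 1, and H2AFY, H2AFY2 and H1FX none. Of 35116 promoters 34.61% held at least 1, 3.258% at least 3 and 0.991% at least 4. The promoters of H2AFX (chr11:119095416-119095715, minus strand) and H3F3B (chr17:75779730-75780029, minus strand) are shown because each held 4 while the genes went opposite ways. Capitals mark CCAAT or its reverse complement ATTGG.
H2AFX promoter: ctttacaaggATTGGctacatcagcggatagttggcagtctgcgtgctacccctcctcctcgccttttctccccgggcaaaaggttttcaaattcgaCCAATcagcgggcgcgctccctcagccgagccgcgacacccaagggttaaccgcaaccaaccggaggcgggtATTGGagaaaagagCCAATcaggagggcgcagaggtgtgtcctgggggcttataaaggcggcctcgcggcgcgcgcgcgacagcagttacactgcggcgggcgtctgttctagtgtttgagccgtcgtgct
H3F3B promoter: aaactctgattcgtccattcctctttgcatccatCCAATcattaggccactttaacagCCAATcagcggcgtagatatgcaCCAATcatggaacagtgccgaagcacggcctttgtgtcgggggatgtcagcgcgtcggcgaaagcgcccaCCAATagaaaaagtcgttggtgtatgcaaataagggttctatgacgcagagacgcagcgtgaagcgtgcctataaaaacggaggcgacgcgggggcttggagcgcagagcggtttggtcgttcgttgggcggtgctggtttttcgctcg
In H2AFX the motif lies in both orientations, and in H3F3B all 4 read CCAAT. A match is a description of letters, and nothing was measured at these promoters.

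Genes that place, modify or process the histones were taken from 5 lists, and another held the other histone variants. Together they held 82 genes, of which 70 were tested, with 12 called higher (17.1%) and 19 lower (27.1%), beside 12% and 39.6% of all tested genes. With median-of-ratios scaling 29 were called higher (41.4%) and 11 lower (15.7%), beside 26.9% and 27.4% of all tested genes on that scale. Counts of single lists with median-of-ratios scaling, given below, are to be read beside those same shares. Among 10 genes of H3.3 deposition, 3 rose and 4 fell, with a median log2 fold change of -0.20 beside -0.29 over all tested genes. UBN2, a subunit of the HIRA complex, fell from 8.23 ± 0.554 to 2.95 ± 0.528 FPKM (-1.35, SE 0.15, limma adjusted p = 0.000250). ATRX, the remodeller that works with DAXX, fell from 13.2 ± 1.48 to 5.96 ± 0.798 FPKM (-1.09, SE 0.15), and ASF1A, an H3-H4 chaperone, from 14.1 ± 2.17 to 8.58 ± 0.590 FPKM (-0.67, SE 0.15). The call of ASF1A was lost after GC and length correction (-0.11, adjusted p = 0.498). The 3 that rose, named after their values were seen, were CABIN1, HIRA and DAXX. None of these calls held without negative control sample 3 or without mimic sample 2, and only 1 held without negative control sample 1. All 3 were called higher with median-of-ratios scaling and after GC and length correction. HIRA, the central subunit of its complex, was at 7.88 ± 1.23 and 11.3 ± 1.81 FPKM (0.50, adjusted p = 0.0375). The list thus held falls and rises within the HIRA complex and within the ATRX-DAXX pair.

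Of 21 genes of H2A.Z exchange, 3 rose and 5 fell, with a median of -0.0050; with median-of-ratios scaling 10 rose and 3 fell. ING3 and EPC1, subunits of the NuA4 acetyltransferase complex, fell from 16.3 ± 1.40 to 5.08 ± 0.198 FPKM (-1.59, SE 0.13) and from 15.3 ± 1.202 to 6.54 ± 0.463 FPKM (-1.17, SE 0.13). RUVBL2, an ATPase shared by the SRCAP, INO80 and NuA4 complexes, rose from 55.3 ± 0.912 to 96.0 ± 14.5 FPKM (0.78, SE 0.14, limma adjusted p = 0.00256). Of 13 genes of H2A.X phosphorylation and its readers, 1 rose and 5 fell, with a median of -0.21; with median-of-ratios scaling 4 rose and 3 fell. This list's count of rises was 0 without negative control sample 1 or 2 or mimic sample 2 or 3 and 3 without mimic sample 1, and its count of falls was 3 without negative control sample 1 or mimic sample 1 or 3. Kinase genes ATR and ATM, whose products phosphorylate H2A.X, fell from 13.9 ± 1.59 to 6.36 ± 0.643 FPKM (-1.07, SE 0.14) and from 26.2 ± 3.70 to 8.86 ± 3.42 FPKM (-1.56, SE 0.24), while H2AFX itself rose. PRKDC, the gene of the kinase DNA-PK, went the other way, from 24.8 ± 2.29 to 37.0 ± 13.7 FPKM (0.51, SE 0.23, limma adjusted p = 0.0984), and was not called. It was called higher with median-of-ratios scaling (0.83, adjusted p = 0.0146) and after GC and length correction (0.96, adjusted p = 0.00555). The gene that rose was MDC1 (0.59, SE 0.17, adjusted p = 0.0177). PRKDC and MDC1 were named after their values were seen. RNF168, a ubiquitin ligase that acts after H2A.X phosphorylation, fell from 13.8 ± 1.26 to 8.29 ± 1.16 FPKM (-0.71, SE 0.15). The call of RNF168 was lost after GC and length correction (-0.33, limma adjusted p = 0.0599).

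Of 13 general histone chaperones and importers, 4 rose and 1 fell, with a median of 0.091; none fell without negative control sample 2, and 7 rose and none fell with median-of-ratios scaling. IPO4, an importin that carries H3-H4, rose from 3.62 ± 0.992 to 16.7 ± 3.92 FPKM (2.06, SE 0.23, limma adjusted p = 0.000228). SSRP1, a subunit of the FACT chaperone, rose from 58.5 ± 6.11 to 137.5 ± 13.1 FPKM (1.23, SE 0.14), and SET, a histone-binding chaperone, from 139.3 ± 3.78 to 252.4 ± 26.8 FPKM (0.85, SE 0.14). Of 12 genes of histone mRNA 3' end formation, 1 rose and 4 fell, with a median of 0.017; with median-of-ratios scaling 5 rose and 2 fell. CASP8AP2 and LSM11, needed for the processing of stem-loop histone mRNAs, fell from 8.45 ± 0.241 to 3.56 ± 0.611 FPKM (-1.15, SE 0.15) and from 5.09 ± 0.955 to 2.30 ± 0.357 FPKM (-0.99, SE 0.18). ZNF473, a zinc finger protein of the same machinery, fell from 4.05 ± 0.0689 to 2.43 ± 0.128 FPKM (-0.64, SE 0.13), a call lost with median-of-ratios scaling (adjusted p = 0.0547).

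**Figure D5:**
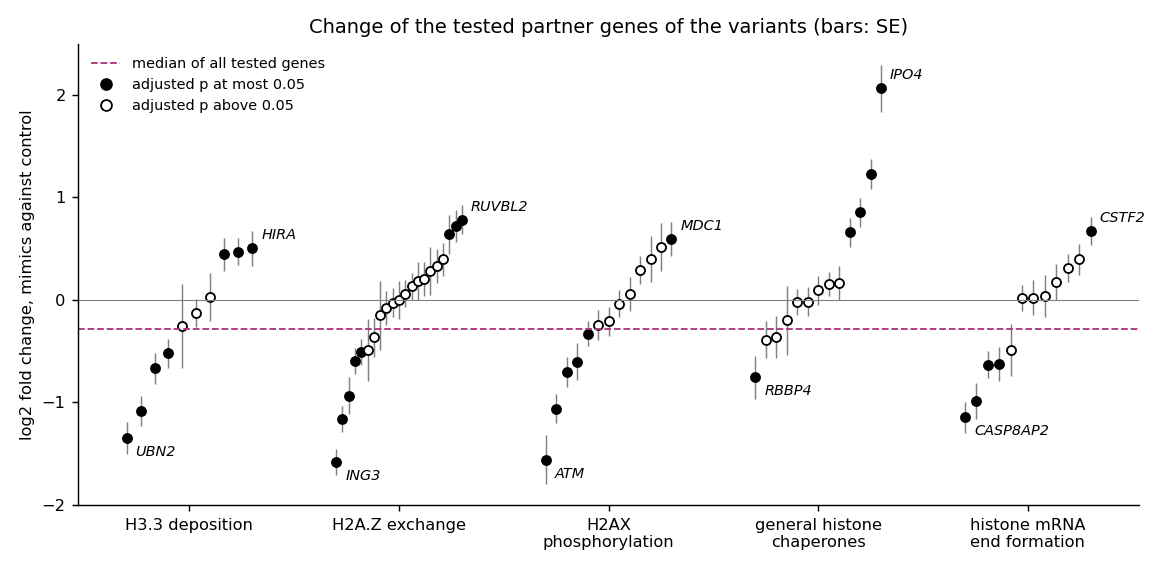
Log2 fold change, mimics against control, of each tested gene in the lists of H3.3 deposition, H2A.Z exchange, H2A.X phosphorylation, general chaperones and histone mRNA end formation (bars SE, filled symbols called); the dashed line is the median of all tested genes, -0.29. IPO4 (2.06) is the highest and ING3 (-1.59) the lowest.

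Most tested clustered HIST genes, unlike the variants, were lower. Of 87 such genes 46 were tested, and limma called none higher (0 also at an unadjusted p under 0.05) and 40 lower (86.96%). Their median log2 fold change was -1.30. Of all tested genes 12% were called higher and 39.6% lower. Median-of-ratios scaling called 1 clustered gene higher and 37 lower (80.43%), beside 26.9% and 27.4% of all tested genes. GC and length correction called 2 higher and 33 lower of 45 (73.33%), with a median of -0.75, beside 26.75% and 23.51% of all tested genes. The most abundant were not called: HIST1H2BK stood at 189 ± 42.7 and 247 ± 51.5 FPKM (0.39, adjusted p = 0.173), and HIST1H1C at 141 ± 25.4 and 139 ± 39.7 (-0.051, adjusted p = 0.866). HIST1H2BK was called higher with median-of-ratios scaling (0.72, adjusted p = 0.0131) and after GC and length correction (0.93, adjusted p = 0.00277). These 2 genes were named after their values were seen. HIST2H3A and HIST2H3C, near-identical copies between which reads may be split, fell from 22.5 ± 0.660 to 1.201 ± 0.243 FPKM (-3.76, SE 0.15) and from 22.2 ± 0.979 to 1.19 ± 0.261 FPKM (-3.75, SE 0.15). HIST2H2BC, an H2B pseudogene, fell from 37.7 ± 1.49 to 5.41 ± 0.387 FPKM (-2.69, SE 0.12). The clustered genes were taken by name, so their counts include pseudogenes, among them also HIST1H2BPS2 and HIST1H1PS1, both called lower. Summed over all of them, clustered transcripts stood at 1253, 1090 and 946 FPKM in the controls and at 801, 624 and 557 in the mimic samples (exact two-sided permutation p = 0.1, adjusted 0.175). The summed level of a list of nuclear or non-polyadenylated RNAs was 435.1 to 613.8 FPKM in the controls and 94.6 to 152.7 in the mimic samples, most of it from NEAT1 and MALAT1. NEAT1 stood at 242.2 to 342.3 FPKM in the controls and 56.5 to 89.1 in the mimic samples, and MALAT1, in the higher of its 2 rows, at 116.5 to 166.3 and 20.2 to 26.6. RN7SK was also lower in every mimic sample, whereas RMRP, RPPH1 and RN7SL1 overlapped between groups and TERC was listed at 0 in all samples. Their part in the changes of the clustered genes and of the variants was not tested. CENPA, the centromeric H3 variant and the only tested gene of 13 other histone variants, stood at 28.96 ± 3.32 and 28.3 ± 3.78 FPKM (-0.034, limma adjusted p = 0.868).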

How the data were processed

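RNA of 3 mimic and 3 control samples was measured. The authors deposited 1 FPKM value per gene and sample, per the file headers; the 6 single-sample tables were checked and held the same values as the matrix. The submitters' processing notes name FastQC, HISAT2 and hg38; the sources used here give no versions, FPKM tool, strand setting or annotation release. FPKM is relative to each library's total, so more RNA of other genes lowers a gene's value. Low values gave whole fragments for only 13.0% to 16.9% of cases at 1% tolerance, so no count test was run.

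Groups came from the treatment label. The test was limma-trend with robust moderation (limma 3.58.1, R 4.3.3) on log2(FPKM + 0.5), with no covariates. It was tested on simulated data, but no outcome of that run is given here. The 18 alternatives were 2 filters, 2 pseudocounts, 3 scalings, a replicate block, a GC and length correction by splines, both together, no robust moderation, each sample left out, and sample 3 of both groups left out. The variant genes and the lists were chosen with earlier results of these data known. Of each list, up to 3 called genes with the smallest p are named, with pseudogenes and overlapping genes of at least 1 FPKM. The GENCODE 29 annotation matched 57836 of 58174 identifiers. A comparison of protein sequences was not made, and coding sequences were compared instead. A gene that the choice by name also takes, and the results that need it, are not reported here.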

Additional observations from a re-analysis of the deposited data

How the results depend on the processing

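Of 289 alternative values of the main results, 241 kept their direction and side of the threshold or, for counts, stayed within 1.5 times and, for shares and sums, within 1 SD of the samples. H2AFX did so in every alternative run with values of 0.87 to 1.22; H2AFJ was never called, but its value ranged from 0.12 without negative control sample 3 to 1.32 without negative control sample 2. Median-of-ratios scaling gave log2 fold changes of 0.65 for H2AFZ and 0.37 for H2AFY, both then called, -0.22 for H3F3A, no longer called, and 0.25 for H1FX, reversed; it called 3 variant genes higher and 1 lower, 3889 of all genes higher, and 29 partner genes higher and 11 lower, and the summed FPKM of the 9 genes differed by 168.4, reversed. Quantile normalization gave -0.39 for H2AFV, then called, with 3592 genes called higher and 3289 lower and 22 partner genes higher; leaving mitochondrial genes out of the total gave -0.32 for H2AFV, also called. GC and length correction gave 0.84 for H2AFZ (called), 0.051 for H2AFV (reversed), -0.048 for H3F3A and -0.43 for H3F3B (neither called), with 2 variant genes higher and 0 lower, 3853 genes higher and 3386 lower, and 29 partner genes higher and 9 lower. The replicate block with this correction gave 0.84, 0.051 and -0.048 for H2AFZ, H2AFV and H3F3A, 2 variant genes higher and 1 lower (H3F3B, -0.43), 3979 genes higher and 3413 lower, and 28 partner genes higher and 9 lower. Without a filter 8755 genes were called lower, H2AFY2 among them, and with a minimum of 5 FPKM 2916. Leaving out each sample in turn gave 0.13 to 0.50 for H2AFZ, -0.039 to 0.15 for H2AFY (reversed without negative control sample 2), -0.44 to -0.27 for H2AFV, -0.62 to -0.41 for H3F3A, -0.35 to 0.14 for H1FX (reversed without negative control sample 1 or mimic sample 3), 1 to 3 variant genes lower (1 without negative control sample 1 or 2), 7 to 13 partner genes higher (7 without mimic sample 2), and a summed difference of -158.9 to 6.997 FPKM (reversed without negative control sample 2). Without sample 3 of both groups H3F3A was at -0.65 (adjusted p = 0.0525), not called, which left 1 variant gene lower. Samples with the same number shared only a number: their deviations correlated at 0.177, -0.047 and 0.223, mimic sample 2 correlated best with negative control sample 3, and the replicate block alone changed no call of a variant gene, with 1 higher and 2 lower, and 2117 and 5994 of all genes. The causes were not tested. Depth in reads per gene is unknown, which limits what can be said of H2AFY2.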

Other observations

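H3F3C, a gene whose coding sequence matched that of H3F3B at 397 of 411 bases (96.59%), was below the expression minimum and was not tested with that minimum. It stood at 0.802, 0.785 and 0.671 FPKM in the controls and at 0.00935, 0.00922 and 0.0151 in the mimic samples. Every mimic sample lay below every control. Only as a ratio was the gap wider than that of H3F3B, at values under 1 FPKM. How reads that match both H3F3C and H3F3B were assigned is not stated, so the level of H3F3C is uncertain. The histone genes H2AFB1, H2AFB2 and H2AFB3 of the short H2A variants were also under 1 FPKM in all samples. These genes were chosen after their values were seen.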
